A study of Mus musculus with 13 samples.

Results

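The NUP210 peaks that cover the end of a gene, but not its start, were examined in 4T1 cells, a mouse mammary tumor line. They were chosen by position: each pairs with at least 1 listed transcript whose end lies inside the peak and whose start does not. By this rule 1883 of the 13204 distinct NUP210 peaks (14.3%) were members, and they ended 2009 of the 6291 genes with any NUP210 peak (31.9%). The other NUP210 peaks covered a gene start alone (1252), a whole gene (900) or only the inside of a gene (9169). NUP210 position, width and reads therefore describe the members and test nothing.

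ChIP-seq was performed on 4T1 cells, which derive from a spontaneous tumor of the BALB/cJ strain. NUP210 and NPC were profiled in sg-Ctrl cells, which carry a non-targeting guide RNA, and H3K27me3 and H3K4me3 in sg-Ctrl cells and in Nup210 knockout (KO) cells. The KO line, N13, is a CRISPR/Cas9 clone made with a guide in an early exon, so H3K4me3 at the start of Nup210 does not check the knockout, and clonal differences and the loss of Nup210 cannot be told apart. Each condition had 1 library, read against rabbit IgG, or mouse IgG for NPC. No test over replicates was possible, and every interval given is a 95% Wilson interval that covers counting error only. All 8 luminal epithelial markers examined (among them Epcam, Krt8 and Cdh1) had a promoter H3K4me3 peak in both lines, whereas 0 of 4 endothelial, 0 of 4 neuronal, 1 of 5 leukocyte and 2 of 6 fibroblast markers did. The KO to sg-Ctrl ratio of library sizes was 3.16 for H3K27me3 and 1.27 for H3K4me3. The lists for NUP210, NPC and H3K27me3 hold only peaks that meet a gene body, so values past a gene end depend on which neighboring genes a peak also meets.

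NUP210 is a transmembrane subunit of the nuclear pore complex, the channel through which RNA and protein cross the nuclear envelope. The NPC antibody, mAb414, recognizes nucleoporins with FG repeats. Chromatin near the envelope is often repressed, and H3K27me3, deposited by Polycomb, marks one form of repressed chromatin, while H3K4me3 marks the start of active or poised genes. At the end of a gene the transcript is cleaved and RNA polymerase is released, and in dense regions the start of the next gene lies close by.

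A member peak reached the next gene downstream in 384 of 1092 cases and covered its start in 189 (17.3%, 15.2 to 19.7). The promoters that a gene-end peak can hold in this way are shown by the sequence before the start of 4 such genes. Each is the next gene after a host among the member peaks of highest NUP210 fold that cover a neighboring start. The sequences are from RefSeq (GRCm38.p6), 250 bases long, written 5′ to 3′ on the strand of the gene and end at the base before its start. Capitals mark the GC box (GGGCGG or CCGCCC), the CCAAT box (CCAAT or ATTGG) and the TATA box (TATAAA or TTTATA), searched on both strands.
Smim27, after Ndufb6, chr4:40269329-40269578, + strand: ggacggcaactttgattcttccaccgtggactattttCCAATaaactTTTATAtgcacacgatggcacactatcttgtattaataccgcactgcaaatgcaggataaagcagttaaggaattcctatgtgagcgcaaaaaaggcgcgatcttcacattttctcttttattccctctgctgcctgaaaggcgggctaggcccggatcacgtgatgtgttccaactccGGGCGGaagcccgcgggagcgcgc
Coq3, after Sfrs18, chr4:21879396-21879645, + strand: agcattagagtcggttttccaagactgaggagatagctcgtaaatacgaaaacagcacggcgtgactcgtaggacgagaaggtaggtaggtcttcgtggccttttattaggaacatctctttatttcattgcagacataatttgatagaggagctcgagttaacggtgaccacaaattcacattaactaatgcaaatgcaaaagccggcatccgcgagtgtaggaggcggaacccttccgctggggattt
Olfr1036, after Olfr1037, chr2:86074454-86074703, + strand: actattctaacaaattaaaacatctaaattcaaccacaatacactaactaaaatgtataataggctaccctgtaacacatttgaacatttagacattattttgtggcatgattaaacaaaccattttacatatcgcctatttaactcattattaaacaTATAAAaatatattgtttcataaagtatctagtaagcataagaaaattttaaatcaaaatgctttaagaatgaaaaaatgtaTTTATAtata
Pcnp, after Trmt10c, chr16:56029718-56029967, - strand: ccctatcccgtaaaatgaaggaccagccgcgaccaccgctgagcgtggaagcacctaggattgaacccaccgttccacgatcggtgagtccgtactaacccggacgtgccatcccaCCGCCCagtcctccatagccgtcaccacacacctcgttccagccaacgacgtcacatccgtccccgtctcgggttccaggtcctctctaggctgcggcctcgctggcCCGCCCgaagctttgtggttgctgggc

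These promoters differed in composition. The sequence before Smim27 held 1 GC box, 1 CCAAT box and 1 TATA box at 49.2% GC, and that before Pcnp 2 GC boxes at 63.2% GC. The sequence before Coq3, an enzyme gene of coenzyme Q synthesis, held none of the 3 motifs at 46% GC. The sequence before Olfr1036, an olfactory receptor gene, was 22.4% GC and held 2 TATA boxes. The 189 cases concerned 177 distinct next genes, of which 134 had a promoter in the table inside the member peak, with 152 promoters in all. Of these, 39.5% (32.1 to 47.4) held a GC box, 40.8% (33.3 to 48.7) a CCAAT box and 13.8% (9.22 to 20.2) a TATA box. The shares among 851 promoters of next genes whose start was not covered were 43.8%, 34.7% and 11.9%, and among all 32817 promoters 32.7%, 33.8% and 12.4%. The ratio of observed to expected CpG had a median of 0.710 in the covered promoters, 0.553 in those not covered and 0.373 in all promoters. A motif match is a description of the letters and not of a bound site.

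Of these 4 next genes, 3 had promoter H3K4me3 in sg-Ctrl and none had H3K27me3 in either list. For Ndufb6, a subunit of respiratory complex I, the member peak (chr4:40259001-40276000) held 314 NUP210 reads against 165 IgG reads, a fold of 1.88 after scaling. For Sfrs18, an older symbol for a splicing-related gene, the peak (chr4:21872001-21881000) held 213 reads against 117, a fold of 1.80. For Olfr1037 (chr2:86073001-86085000) it held 312 against 172 (1.79), and for Trmt10c, which encodes a subunit of mitochondrial RNase P (chr16:56023001-56037000), 434 against 258 (1.66). The highest fold among members that cover the next start was on Ccdc112, a coiled-coil gene, with 158 reads against 63 (2.48), and the next gene there, Pggt1b, also had promoter H3K4me3. The peaks of Ndufb6, Sfrs18 and Olfr1037 met no NPC peak, while the whole 14 kb of the Trmt10c peak lay in NPC peaks. The olfactory receptor genes have many similar copies, and reads could be shared among them.

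The members were broad and weakly enriched. Their width had a median of 18 kb (5th to 95th percentile 5 to 71, maximum 243), against 14 kb for all other NUP210 peaks. Together they spanned 47.8 Mb and held 1340489 reads, with a median of 423 reads per peak. The fold over IgG had a median of 1.16 and ran from 0.620 to 6.70, against a median of 1.19 in the other peaks. An FDR of at most 0.05 was given to 1250 members (66.4%), and 319 (16.9%) had fewer reads than the scaled IgG. A fold of at least 2 was reached by 25 members (1.33%) and by 399 other peaks (3.52%). Within the host gene the members extended over a median of 9.02 kb, and past its end over 6.15 kb. More of the peak lay inside the gene in 1120 members (59.5%). Their host genes had a median length of 42.9 kb, against 34.0 kb for the genes with other NUP210 peaks alone.

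Several gene ends shared a peak. There were 149 members that ended 2 or more genes, of which 148 ended genes on both strands, with up to 10 genes in a peak. The start of a listed transcript, of another gene or another transcript of the host, was also covered by 243 members (12.9%). Among the 2009 hosts, 30 had 2 or more member peaks and 1163 also had another NUP210 peak. The members took between 10.1% of the NUP210 peaks on chromosome X and 18.3% on chromosome 16.

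The rule turns on single base pairs. The peak on Setdb2, a histone methyltransferase gene (chr14:59402001-59412000), passed the gene end by 10 bp, with 211 NUP210 reads and a fold of 0.779. The peaks on Mbtd1 (fold 1.20) and Naalad2 (0.978) passed it by 15 and 20 bp. Just outside, the peak on Mlf1 (chr3:67393001-67400000, fold 1.31) stopped 1 bp short, that on Acyp2 (0.774) 9 bp short and that on Ifit1 (1.27) 10 bp short. Peaks were called in windows of 1000 bp, and in 237 members the edge past the gene end lay under 1000 bp from it.

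The members of highest fold were narrow and held few reads. The peak at the end of Pcdhb13, a clustered protocadherin gene (chr18:37446001-37447000), had 61 NUP210 reads and 9 IgG reads, a fold of 6.70. Olfr248, another olfactory receptor gene (chr1:174392001-174394000), had 101 and 23 reads (4.34), and Zik1, a zinc finger gene (chr7:10485001-10488000), 108 and 29 (3.68). C530008M17Rik (chr5:76872001-76874000) had 89 and 24 reads (3.67). Insig2, which holds the sterol sensor SCAP in the endoplasmic reticulum (chr1:121303001-121308000), had 158 and 53 reads (2.95). None of these 5 peaks met an NPC peak. Pcdhb13, Olfr248 and Zik1 belong to families with similar copies, so their reads are uncertain. H3K27me3 covered 1 kb of the Pcdhb13 peak in both lists and 2 kb of the Olfr248 peak in KO, and was not listed in the other 3.

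To ask whether NUP210 at gene ends coincides with repressed chromatin, the members were intersected with the H3K27me3 peaks. In sg-Ctrl cells 628 members (33.4%, 31.3 to 35.5) overlapped H3K27me3 by at least 1 bp, and in KO cells 638 (33.9%, 31.8 to 36.1). The other NUP210 peaks gave 35.2% (34.3 to 36.1) and 35.9% (35.0 to 36.8), so the intervals overlapped in both lines. In 556 members H3K27me3 was listed in both lines, in 82 (4.35%) in KO alone and in 72 (3.82%) in sg-Ctrl alone. Peaks at gene starts gave shares near those of the members, 32.7% in sg-Ctrl and 34.1% in KO. Whole-gene peaks stood apart, with 46.7% (43.4 to 49.9) and 54.2% (51 to 57.5). In the part of the peak inside the host gene alone, the members gave 31.7% and 32.0%.

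**Figure D1:**
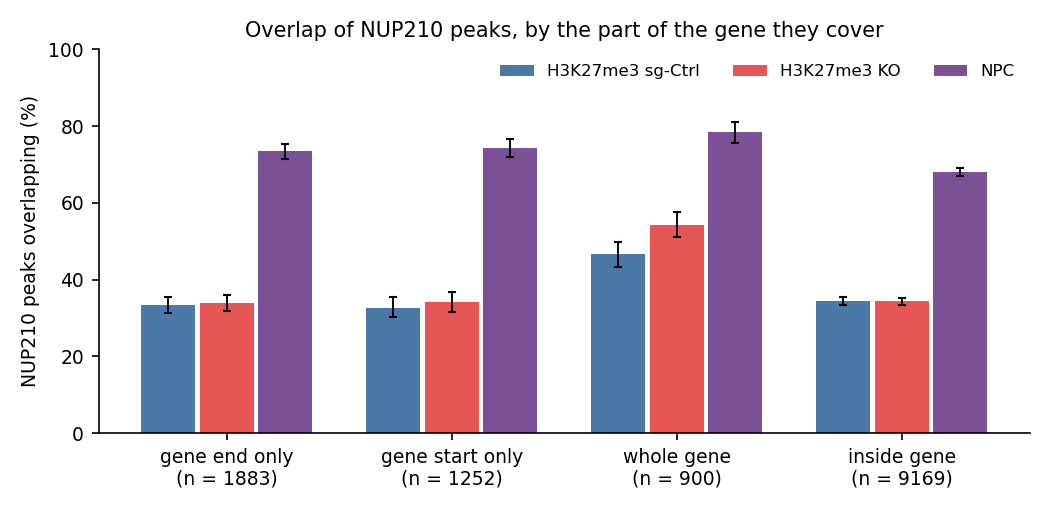
Share of NUP210 peaks (%) that overlap H3K27me3 in sg-Ctrl, H3K27me3 in KO and NPC by at least 1 bp, for peaks grouped by the part of the gene they cover; bars are shares, whiskers 95% Wilson intervals. The gene-end peaks (33.4%, 33.9% and 73.5%) lie close to the gene-start peaks (32.7%, 34.1% and 74.4%), and whole-gene peaks are higher for H3K27me3.

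NPC peaks met 1384 members (73.5%, 71.5 to 75.4), against 69.6% (68.8 to 70.4) of the other NUP210 peaks. Width moved with this share. Members of up to 5 kb met NPC in 40.2% of cases (31.0 to 50.2) and those over 40 kb in 99.0% (97.1 to 99.7), and the other peaks gave 44.9% and 98.6%. In the class of 11 to 20 kb the members gave 67.1% (63.5 to 70.5) and the others 69.1% (67.7 to 70.5). The intervals of members and other peaks overlapped in each of the 5 width classes, so the difference of the pooled shares was not seen among peaks of like width. NPC peaks are themselves weak: with NPC peaks at an FDR of at most 0.01 alone, 539 members (28.6%) met one, and with those of at least 2-fold over IgG 8 members (0.425%). H3K27me3 in sg-Ctrl was met by 33.4% (30.9 to 35.9) of members with NPC and by 33.3% (29.3 to 37.5) of members without. In the other NUP210 peaks the shares were 36.2% (35.2 to 37.3) with NPC and 32.8% (31.2 to 34.3) without, and the difference between the sets was not tested.

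**Figure D2:**
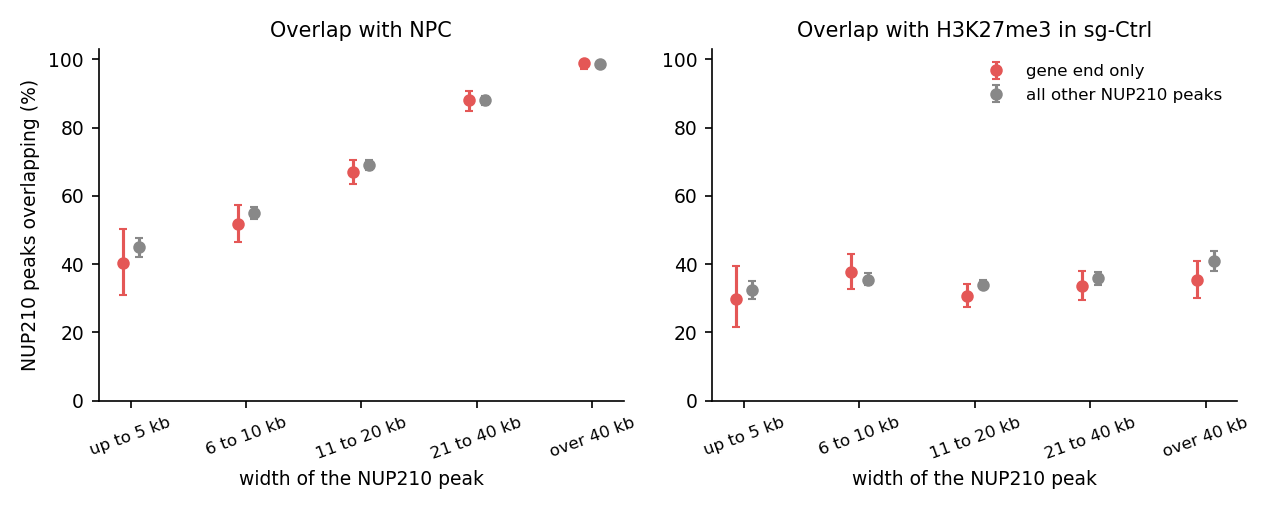
Share of NUP210 peaks (%) overlapping NPC (left) and H3K27me3 in sg-Ctrl (right) by width of the NUP210 peak; points are shares for gene-end peaks and all other NUP210 peaks, whiskers 95% Wilson intervals. The NPC share of gene-end peaks climbs from 40.2% at up to 5 kb to 99.0% over 40 kb, as in the other peaks, while the H3K27me3 share stays between 29.9% and 37.7%.

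Stronger NUP210 enrichment did not go with more NPC. Members below scaled IgG met NPC in 75.5% of cases (70.5 to 79.9), those with an FDR of at most 0.05 in 73.1% (70.6 to 75.5), and the 166 members of at least 1.5-fold in 46.4% (39.0 to 54.0). These 166 members were also narrower, with a median width of 9 kb against 18 kb for those with an FDR of at most 0.05. Of the 25 members of at least 2-fold, 5 met NPC.

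The 5 members with the highest NPC fold lay on Lrif1, Tet1, Gm13178, Stxbp5l and Nipbl. Positions below are those of the member, while reads and folds are those of an NPC peak that met it. NPC covered 2 of 8 kb of the Tet1 member, 2 of 16 kb for Gm13178 and 4 of 20 kb for Nipbl. It covered 22 of 26 kb for Lrif1 and 43 of 58 kb for Stxbp5l. The member of Lrif1, a gene whose product acts in heterochromatin (chr3:106711001-106737000), met an NPC peak with 113 reads and 55 IgG reads, a fold of 3.39. Tet1, which oxidizes methylated cytosine (chr10:62804001-62812000), had 88 and 52 NPC reads (2.79), and Nipbl, the cohesin loader (chr15:8272001-8292000), 128 and 91 (2.32). Stxbp5l, a gene of vesicle release (chr16:37104001-37162000), had 91 and 64 (2.35) and Gm13178 92 and 59 (2.57). The NUP210 fold at the same members was 1.60 for Lrif1 and 1.59 for Tet1, but 0.943 for Nipbl and 0.993 for Gm13178, which are below scaled IgG. The Stxbp5l member lay wholly in H3K27me3, with 58 of 58 kb covered in both lists, while H3K27me3 was not listed in those of Tet1, Nipbl and Gm13178.

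The coverage around the 2107 distinct gene ends in member peaks is given as a description, since each end was chosen for lying in a NUP210 peak. NPC covered the last base of 61.7% (59.7 to 63.8) of these genes, 47.7% at 10 kb inside the gene and 31.6% at 10 kb past the end. H3K27me3 of sg-Ctrl covered 26.1% (24.2 to 28.0) of the ends and that of KO 26.8% (24.9 to 28.7). At 2887 ends of NUP210-listed genes that no NUP210 peak covered, NPC covered 15.3% (14 to 16.6), and H3K27me3 15.1% (13.9 to 16.5) in sg-Ctrl and 15.8% in KO. H3K27me3 was listed at 82 (3.89%) of the covered ends in KO alone and at 67 (3.18%) in sg-Ctrl alone, near the 3.43% and 2.77% at the ends outside NUP210 peaks.

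**Figure D3:**
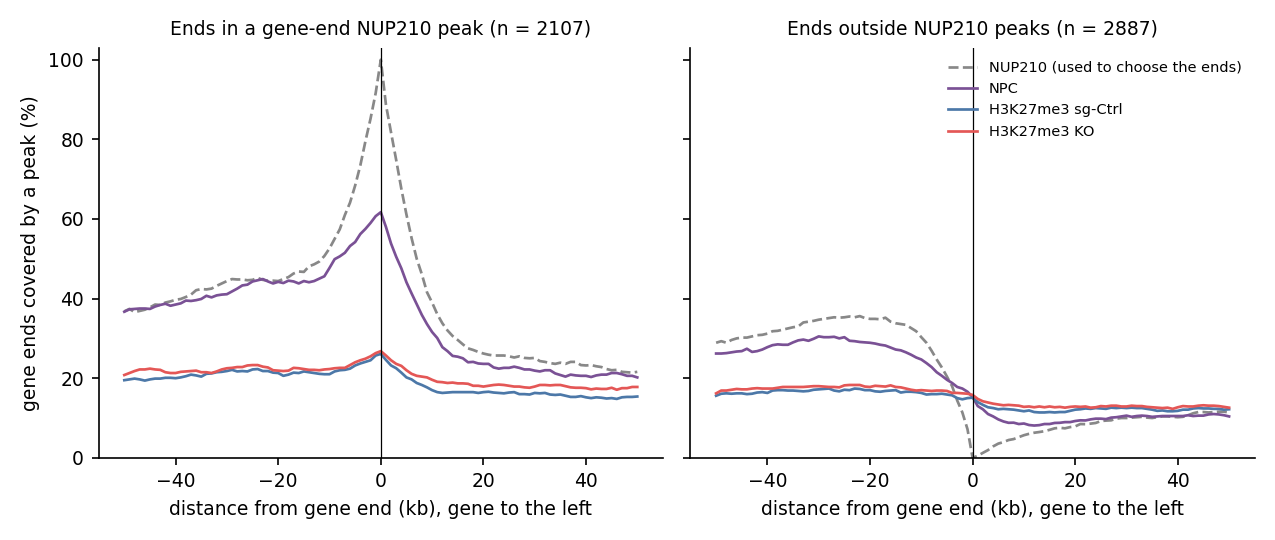
Share of gene ends (%) covered by a peak of each list at distances of -50 to 50 kb from the gene end (gene body at negative values), for ends in a gene-end NUP210 peak (n = 2107, left) and ends outside NUP210 peaks (n = 2887, right); the dashed NUP210 line chose the ends. NPC reaches 61.7% and H3K27me3 26.1% (sg-Ctrl) and 26.8% (KO) at the covered ends, against 15.3%, 15.1% and 15.8% at the others.

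To ask whether loss of Nup210 changed H3K27me3 at these ends, the length covered inside each member was compared. Of the 47.8 Mb in members, H3K27me3 covered 11.7 Mb (24.5%) in sg-Ctrl. The KO list covered 12.4 Mb (25.9%), which is a ratio of 1.06, against 1.07 for the other NUP210 peaks. Of the members, 203 had more length covered in KO, 165 less, 342 had equal lengths and 1173 had none in either list. It was at least 2-fold greater, or listed in KO alone, in 114 of the 710 members with H3K27me3 (16.1%), where the background over all NUP210 peaks was 16.4%. It was at least 2-fold smaller, or listed in sg-Ctrl alone, in 91 (12.8%), against a background of 13.2%. The members were thus near the background in both directions.

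**Figure D4:**
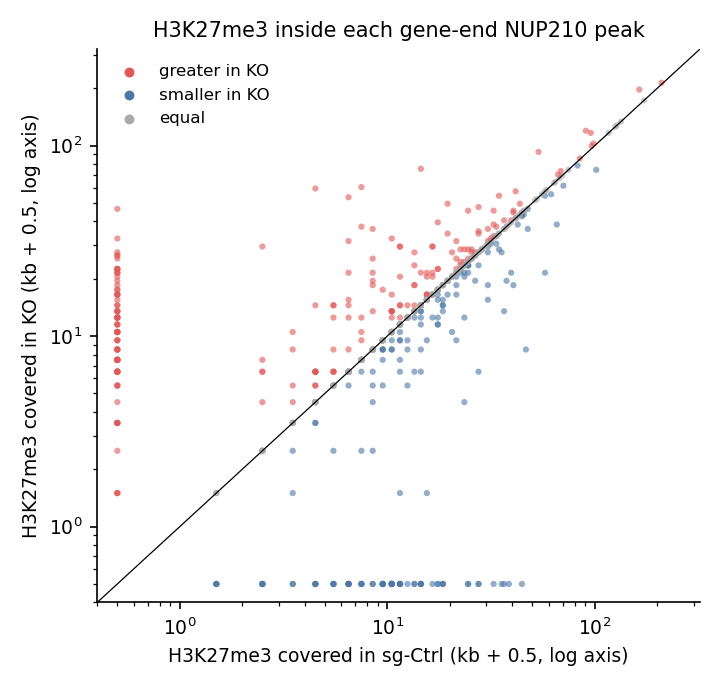
Length covered by H3K27me3 (kb, with 0.5 kb added, log axes) inside each of the 710 gene-end NUP210 peaks with H3K27me3 in either list, sg-Ctrl on the horizontal and KO on the vertical axis; each point is a peak, the line marks equal lengths, and points at 0.5 kb on an axis had none listed in that condition. Points above the line (203) and below it (165) are both common, and 342 lie on it.

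The part past the gene end and the part inside it were not alike. Inside the host gene 6.74 Mb were covered in sg-Ctrl and 6.78 Mb in KO (ratio 1.01), while past the end 4.97 and 5.63 Mb were covered (1.13). Past the end, 159 members had more length covered in KO and 111 less. The same ratio outside the gene was 1.08 for gene-start peaks and 1.24 for whole-gene peaks, so values above 1 outside genes were not particular to gene ends. Lengths gained summed to 2087 kb over the members, of which the 10 largest gains made up 426 kb (20.4%). The ratio past the end was not computed without these 10 members, so their part in the value of 1.13 is not known. Where lengths fell, the summed change was -1390 kb. Gains of at least 10 kb were seen in 78 members and losses of at least 10 kb in 53.

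Of the 5 largest gains, 4 lay on genes without a promoter H3K4me3 peak in sg-Ctrl, and Ddx60 had one. At the end of 4933400C23Rik, a noncoding gene (chr9:92771001-92849000), 14 kb were covered in sg-Ctrl and 75 kb in KO. In Phactr3, a phosphatase and actin regulator gene (chr2:178333001-178410000), 4 and 59 kb of 77 kb were covered. In Zfpm2, which encodes a cofactor of GATA factors (chr15:40922001-41143000), 7 and 60 kb of 221 kb were covered. The member of Ddx60, an antiviral helicase gene (chr8:61990001-62043000), had 6 kb covered in sg-Ctrl and all 53 kb in KO, where the H3K27me3 peak with most reads spanned 225 kb against 66 kb in sg-Ctrl. The member of Tinag, a basement membrane gene (chr9:76916001-76966000), had none listed in sg-Ctrl and 46 of 50 kb in KO, in a peak of 3570 reads and a fold of 2.17. In sg-Ctrl the H3K27me3 peak with most reads in the Zfpm2 member had 181 reads and a fold of 1.01, so this gain started from a peak at the IgG level.

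The largest losses likewise fell partly on weak peaks. The member of Pcdh17, a protocadherin gene (chr14:84451001-84541000), had 44 kb covered in sg-Ctrl and none listed in KO, with 495 reads and a fold of 1.13 in the sg-Ctrl peak with most reads. The member of Sema3a, a secreted guidance cue gene (chr5:13525001-13614000), went from 36 kb to none listed, with 315 reads and a fold of 0.930. The sg-Ctrl peaks were stronger on Bank1, a B-cell scaffold gene (chr3:136048001-136094000; 46 kb to 8 kb, fold 2.78), on Gm889 (chr12:40132001-40179000; 38 kb to none listed, fold 1.75) and on Bmp5, a growth factor gene (chr9:75802001-75900000; 57 kb to 21 kb, fold 1.51). Sema3a was the only one of these 5 with promoter H3K4me3, whose scaled density was 160 reads per kb (sg-Ctrl) and 217 (KO).

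H3K27me3 reads at these sites centered near the values of other sites. Over 558 regions with H3K27me3 in both lists that met a member, the log2 ratio of KO to sg-Ctrl, scaled by library size, had a median of -0.0018 (25th to 75th percentile -0.389 to 0.481). Over 2334 regions that met other NUP210 peaks alone it was 0.0057, and over 3352 regions with no NUP210 peak 0.028. Scaled by the reads of identical peaks the 3 medians were 0.15, 0.15 and 0.18, and by the reads of regions in both lists -0.13, -0.12 and -0.097, so the sign depended on the scaling while the 3 sets stayed together.

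H3K27me3 borders were looked for inside the members, since a border shows where a domain stops. In sg-Ctrl 282 members (15%, 13.4 to 16.7) held a border and 346 (18.4%, 16.7 to 20.2) lay wholly within H3K27me3. In KO 259 (13.8%, 12.3 to 15.4) held a border and 379 (20.1%, 18.4 to 22.0) lay within. Gene-start peaks held a border in 16.1% and 14.6%, and all NUP210 peaks in 15.1% and 13.3%. The border share rose with width, and the members were wider. In sg-Ctrl the members lay below the other NUP210 peaks in each width class, with overlapping intervals. At 11 to 20 kb the shares were 11.7% (9.50 to 14.3) and 14.5% (13.4 to 15.6). Over 40 kb they were 25.8% (21.1 to 31.0) and 32.2% (29.4 to 35.2). Of all NUP210 peaks, 19.8% lay wholly within H3K27me3 in sg-Ctrl and 22.3% in KO. At the 482 member-covered ends that lay in H3K27me3 in both lists, the H3K27me3 peak reached a median of 12.5 kb past the end in sg-Ctrl and 18.9 kb in KO. It reached farther in KO at 213 ends, less far at 96 and equally far at 173. Into the gene the medians were 19.4 and 29.6 kb, with 216 longer and 119 shorter. At 357 such ends outside NUP210 peaks the outward medians were 15.4 and 19.6 kb, with 149 longer and 76 shorter. The share longer was 41.7% (36.7 to 46.9) there, against 44.2% (39.8 to 48.7) at the member-covered ends. Into the gene, the medians outside NUP210 peaks were 20.9 and 31.3 kb, with 168 longer and 82 shorter. The share longer was 47.1% (41.9 to 52.2), against 44.8% (40.4 to 49.3) at the member-covered ends. The KO library was larger by the ratio of 3.16 given above, and the part of depth in the longer peaks was not tested.

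The host genes were next described by their marks. In sg-Ctrl 1139 of 2009 hosts (56.7%, 54.5 to 58.8) had promoter H3K4me3 and in KO 1138, against 49.8% (48.3 to 51.3) of 4282 genes with other NUP210 peaks alone. H3K27me3 on the gene body was listed for 758 hosts (37.7%, 35.6 to 39.9) in sg-Ctrl and 745 (37.1%) in KO, and for 36.4% and 38.3% of the other genes. Of the hosts, 50.6% had H3K4me3 alone, 31.6% H3K27me3 alone, 6.12% both and 11.7% (10.4 to 13.2) neither, where 18.7% (17.5 to 19.9) of the other genes had neither. H3K27me3 was listed on 66 hosts (3.29%, 2.59 to 4.16) in KO alone and on 79 (3.93%, 3.17 to 4.87) in sg-Ctrl alone. The other genes had the opposite balance, with 4.93% (4.32 to 5.62) in KO alone and 3.01% (2.54 to 3.57) in sg-Ctrl alone. These other genes pool all other kinds of NUP210 peak, whole-gene peaks among them, and the counts were not split by kind.

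Promoter H3K4me3 of the hosts was compared between KO and sg-Ctrl as scaled reads per kb, called at 2-fold. Of 1119 hosts with values in both lists, 160 (14.3%) were lower in KO, where the background over 12197 genes was 9.66%, and 2 (0.179%) were higher, where the background was 0.525%. Of the genes with other NUP210 peaks alone, 13% were lower, so the hosts stood near the other bound genes. The median log2 ratio was -0.60 for the hosts, -0.60 for the other bound genes and -0.50 for all genes. When reads were scaled by the peaks shared by both lists, the medians of the hosts and of all genes were -0.18 and -0.08, and 19 hosts (1.70%, background 1.25%) were lower and 7 (0.626%, background 1.73%) higher. The number of hosts called lower thus rests on the scaling, and a host can be read only relative to the median of all genes.

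Among hosts whose higher library had 100 reads or more, Nqo1, Ulbp1 and Mndal had the lowest ratios. Nqo1, a quinone reductase gene, had 720 reads at its start in sg-Ctrl and 208 in KO, or 339 and 64.3 scaled reads per kb (log2 -2.40). Ulbp1, which encodes a ligand of the NKG2D receptor, had 1784 and 491 reads (-2.15). Mndal, an interferon-inducible gene, had 5721 and 1895 reads (-2.00). The member peaks of Ulbp1 and Mndal had NUP210 folds of 0.902 and 0.889, below scaled IgG, and that of Nqo1 (chr8:107376001-107389000), which also ended Nfat5 on the other strand, 1.27. The highest ratios were on Itgb8, an integrin subunit gene (55 and 136 reads, log2 1.22), Plcl1 (72 and 630 reads, 1.20) and Cadps2, a gene of vesicle release (34 and 594 reads, 0.97). Their sg-Ctrl reads were few. At Plcl1 the peak at the start spanned chr1:55405401-55406600 in sg-Ctrl and chr1:55404601-55408200 in KO, and H3K27me3 covered all 11 kb of its member in sg-Ctrl and was not listed there in KO.

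The hosts were then counted by gene group. The H3K4me3 calls in each group use scaling by library size, were not counted again by group under the other scalings, and are read beside the median log2 ratio of -0.50 over all genes. The counts stand beside these shares: 31.9% of genes with NUP210 were hosts, 56.7% of hosts had promoter H3K4me3, 37.7% had H3K27me3 in sg-Ctrl and 37.1% in KO, and 14.3% of hosts were 2-fold lower in H3K4me3. With few genes in most groups, nothing is called particular to a group. Among migration and chemokine genes named by the study, a list it chose on these cells and so no independent evidence, 2 had a NUP210 peak and both were hosts. The member of Postn, a matricellular protein gene (chr3:54370001-54396000), had no H3K27me3 listed in sg-Ctrl and 19 kb in KO, in a peak with a fold of 1.38. The NUP210 fold of this member was 1.07, with an FDR of 0.0717. The gene had 77 H3K4me3 reads at its start in sg-Ctrl and no peak listed in KO. The member of Cxcl3, a chemokine gene (chr5:90788001-90811000), had none in either list, and its start had 275 H3K4me3 reads in sg-Ctrl and no peak listed in KO.

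Of 13 integrin and focal adhesion genes with NUP210, 7 were hosts, all with promoter H3K4me3 in sg-Ctrl. H3K27me3 was listed on 3 of the 7 in sg-Ctrl and on 2 in KO. By the 2-fold call 1 of the 7 was lower in KO and 1 higher, with a median log2 of -0.50. Itgb1, the common beta subunit (chr8:128714001-128744000), had 14561 and 10789 H3K4me3 reads, or 1401 and 548 scaled reads per kb (log2 -1.35), in a peak that was wider in KO. Itgav had 5913 and 4895 reads (-0.62) and Vcl, vinculin, 3529 and 2721 (-0.27). Neither the Itgb1, the Itgav nor the Vcl member met H3K27me3. The Vcl member (chr14:21033001-21045000) had 327 NUP210 reads against 179, a fold of 1.81, and also ended Ap3m1.

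Of 13 nucleoporin genes with NUP210, 5 were hosts, all with promoter H3K4me3 and none with H3K27me3, and 2 of the 5 were lower in KO. Ranbp2, on the cytoplasmic face of the pore (chr10:58450001-58502000), had 6233 and 4191 H3K4me3 reads (log2 -1.08), and Nup37 (chr10:88152001-88184000) 6121 and 4756 (-1.05). The NUP210 fold was 1.41 for the Ranbp2 member, but 1.01 with an FDR of 0.475 for the Nup37 member. The LINC and lamina list had 2 hosts of 3 genes with NUP210, Syne1, which links the envelope to the cytoskeleton (log2 -1.30), and Lemd3, an inner membrane protein gene (-0.88), both with promoter H3K4me3. The H3K4me3 peak used for Syne1 (chr10:5191601-5196400 in sg-Ctrl) lay outside the transcript that the member ended (chr10:5020196-5069063). H3K27me3 was listed on the body of 1 of the hosts in each line, and neither member met it. Of 12 Polycomb and heterochromatin enzyme genes with NUP210, 6 were hosts, 5 of them with promoter H3K4me3 and 1 with H3K27me3 in sg-Ctrl alone. None of the 5 with values in both lists passed 2-fold. Pcgf6, a subunit of a variant Polycomb complex (chr19:47033001-47047000), had a NUP210 fold of 1.54.

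Of 17 collagen genes with NUP210, 11 were hosts, and 9 of these had H3K27me3 on the body in each list and 2 promoter H3K4me3. The Col3a1 member (chr1:45333001-45353000) had 19 of 20 kb covered in both lists, and that of Col1a2 (chr6:4533001-4543000) 3 kb in sg-Ctrl and 10 kb in KO. The Col11a1 member (chr3:114208001-114227000, NUP210 fold 1.57) met none. Of 16 cadherin and desmosome genes with NUP210, 10 were hosts, 8 of them with H3K27me3 on the body in each list and 1 with promoter H3K4me3. The members themselves met H3K27me3 in 3 cases in sg-Ctrl and in 4 in KO. The Cdh12 member had 26 kb covered in sg-Ctrl and 19 in KO, and the Cdh19 member 23 and 12 kb. The H3K27me3 peaks there were weak, with folds of 1.03 and 0.954 for Cdh12 and 1.02 and 0.809 for Cdh19. Of 33 synaptic adhesion genes with NUP210, 12 were hosts, 4 with H3K27me3 on the body in sg-Ctrl and 7 in KO and none with promoter H3K4me3. Their members met H3K27me3 in 4 cases in sg-Ctrl and in 5 in KO. The Nrxn3 member had none listed in sg-Ctrl and 3 kb in KO.

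Of 13 genes of the Hox, Pax, Lhx, Sox, Gata, Tbx and related homeobox families 4 were hosts, and 3 of the members met H3K27me3 in each list. The Tbx20 member, of a cardiac factor gene (chr9:24730001-24744000), had all 14 kb covered in both. Zinc finger genes with the symbol Zfp formed the longest list, with 42 hosts among 92 genes with NUP210. Of these 37 had promoter H3K4me3 and 5 H3K27me3 in each list, and of 36 with values in both H3K4me3 lists 7 were lower in KO. Zfp58 (chr13:67487001-67498000) had 231 NUP210 reads against 83, a fold of 2.75. Many of these genes have similar copies. No replication-dependent histone gene had a NUP210 peak.

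Last, the state of the next gene downstream was examined. A protein-coding gene of GRCm38.p6 lay within 50 kb past the end of 1092 hosts (54.4%, 52.2 to 56.5), at a median distance of 11.9 kb, and 53.4% (50.4 to 56.3) of those with a known strand lay on the strand of the host. For genes with other NUP210 peaks alone a next gene lay within 50 kb in 66.2% (64.8 to 67.6). Cases are counted per host. A next gene can therefore follow several hosts, and a pair of neighbors can count from both sides. The intervals do not allow for this. The next gene of a host had promoter H3K4me3 in sg-Ctrl in 57.3% of cases (54.4 to 60.2), against 43.0% (41.2 to 44.8) for the others. This difference came with the kind of peak on the other genes. Those with a gene-start or inside peak gave 57.2% (54.9 to 59.5), the same as the hosts within the intervals, and those with whole-gene peaks alone gave 19.9% (17.6 to 22.4).

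H3K27me3 on the body of the next gene was listed for 33.2% (30.5 to 36.1) in sg-Ctrl and 32.0% (29.3 to 34.8) in KO. For other genes with a gene-start or inside peak the shares were lower, 27.1% (25.1 to 29.3) and 24.8% (22.9 to 26.9), and for those with whole-gene peaks alone higher, 43.5% (40.6 to 46.5) and 52.6% (49.7 to 55.6). Among hosts with promoter H3K4me3, 24.0% (21 to 27.3) of next genes had H3K27me3 in sg-Ctrl, against 21.1% (18.9 to 23.4), and among hosts without it 49.9% (44.9 to 54.8) against 41.0% (36.9 to 45.2), the second number being that for genes with a gene-start or inside peak. H3K27me3 appeared on the next gene in KO alone in 23 cases (2.11%, 1.41 to 3.14) and in sg-Ctrl alone in 37 (3.39%, 2.47 to 4.64). For all other genes with NUP210 the shares were 5.93% (5.12 to 6.86) in KO alone and 3.92% (3.26 to 4.70) in sg-Ctrl alone. These pool genes with a gene-start or inside peak and genes with whole-gene peaks alone. The counts were not split by kind of peak.

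**Figure D5:**
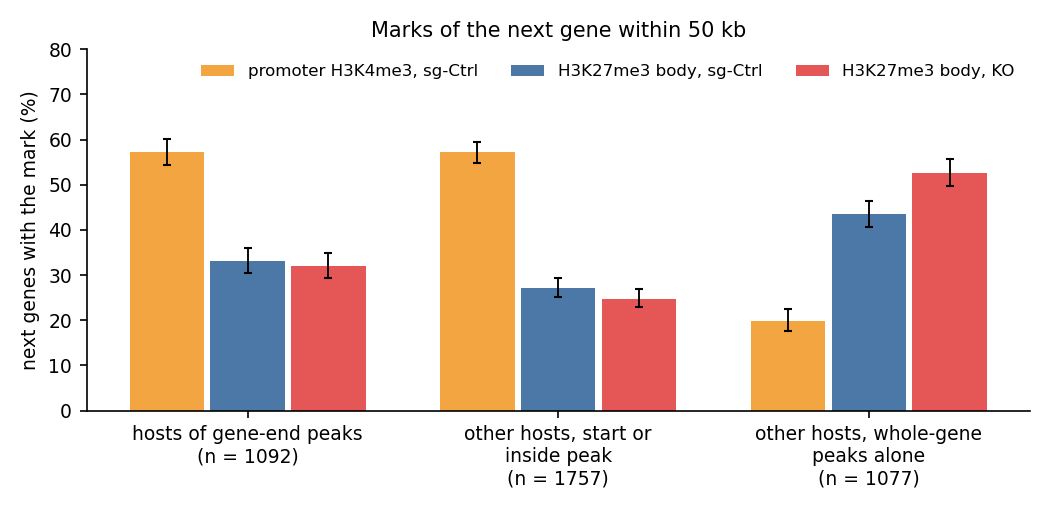
Share of next genes within 50 kb (%) with promoter H3K4me3 in sg-Ctrl and with H3K27me3 on the body in sg-Ctrl and KO, for hosts of gene-end peaks, other genes with a gene-start or inside peak, and other genes with whole-gene peaks alone; bars are shares, whiskers 95% Wilson intervals. Promoter H3K4me3 is at 57.3%, 57.2% and 19.9% in the 3 sets, and H3K27me3 in KO at 32.0%, 24.8% and 52.6%.

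The mark of the host and of its neighbor went together. Where the host had H3K27me3 in sg-Ctrl, the next gene had it too in 57.1% (51.9 to 62.1) of 354 cases. Where the host had none, the next gene had it in 21.8% (19.0 to 24.9) of 738 cases. The other genes gave 60.0% and 19.6%. The next gene had promoter H3K4me3 in 64.3% (59.4 to 69.0) of cases where the member peak reached it and in 53.5% (49.8 to 57.2) where it did not. Next genes within 10 kb had promoter H3K4me3 in 67.9% of 498 cases, so nearness went with the mark as well. Of 618 cases with H3K4me3 values for the next gene in both lists, 85 (13.8%, 11.3 to 16.7) were 2-fold lower in KO and 3 (0.485%) higher. Over all genes the shares were 9.66% and 0.525%. For next genes of the other bound genes, pooled over kinds of peak, 9.93% (8.37 to 11.8) were lower and 0.417% higher. These counts were not repeated under another scaling.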

How the data were processed

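The 6 ChIP-seq conditions of 4T1 cells were analysed, each with 1 library. Per the file contents and methods, the authors called peaks with SICER against IgG in windows of 1000 bp (200 bp for H3K4me3) and paired them with gene bodies, or with 4 kb on either side of gene starts for H3K4me3. For each peak the authors deposited raw counts of ChIP and IgG reads, a p-value, an FDR, and the ratio (fold) of ChIP to IgG scaled by library size. The submitters' processing notes name Trimmomatic, STAR, Picard and Bowtie2 and several mouse builds, without roles, and versions are not given in the sources used here. Of 1821 hosts matched by name (90.6%), 80.9% matched GRCm38.p6 at a start or an end to within 50 bp, so positions are taken as that build. NCBIM37 sequence was not used.

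Entries were collapsed to distinct peaks and classed by the transcript start and end they cover. A peak with several transcripts was a member if any entry met the rule. Overlap required 1 bp. Relative library sizes were recovered from the deposited counts and folds, and H3K4me3 reads per kb were divided by them. The next gene was the nearest of 21900 protein-coding genes past the end of a host, within 50 kb, and the strand of 94.7% of these was known. Steps were tested on simulated data. The members, gene lists and comparisons were chosen with earlier results of these data known. Named genes are the hosts of the 5 members of highest NUP210 fold (at least 50 reads and an FDR of at most 0.05), the 5 largest H3K27me3 gains and losses in covered length, the 5 highest NPC folds (the same limits), the 5 of highest fold that cover the next gene start, the 3 lowest and 3 highest H3K4me3 ratios (at least 100 reads), up to 4 hosts per gene list, and the members nearest the limit of the rule. Not all of these are described, and which were was chosen with their values seen. The 3 IgG samples entered through their reads in the lists, while RNA-seq (4 samples) was not analysed here. Total library depth is unknown. Reads in peaks ran from 5866175 (NPC) to 26811061 (H3K27me3 in KO). Computations ran in Python 3.11.15 with pandas 2.3.3, numpy 2.4.6 and scipy 1.17.1, and plots were drawn with matplotlib 3.10.9. Alternatives are given in the closing section.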

Additional observations from a re-analysis of the deposited data

How the results depend on the processing

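Of 62 alternative values, 39 kept their level. The cause of the other 23 was not tested. A share kept its level if it lay inside the interval of the main value. A count of called hosts, or the covered length ratio, did so within a set fold of the main value. A ratio of 1.01 thus also counted as kept, so the tally says little about that ratio. With the second list at a fold of at least 2, the H3K27me3 share of the members was 23.6% in sg-Ctrl and 22.5% in KO, the NPC share 0.425%, and a border was held by 7.49% and 6%. With the second list at an FDR of at most 0.01 the H3K27me3 share in KO was 31.2%, the NPC share 28.6%, and the border shares 13.2% and 11.3%. With at least 50% of the member covered, the shares were 26.8% and 28.2% for H3K27me3 and 63.4% for NPC. Members of 10 to 20 kb gave 31.6% for H3K27me3 in KO, 66.1% for NPC, and borders in 11.3% and 9.49%. Members whose gene end lay at least 1000 bp inside the peak gave 76.4% for NPC. Within 10 kb, the next gene had promoter H3K4me3 in 67.9% and H3K27me3 in 24.5% (sg-Ctrl) and 22.1% (KO). By shared-peak scaling 19 hosts were lower in H3K4me3 and 7 higher, and by total reads 15 were higher.

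The covered length ratio stayed between 1.01 (inside the host gene) and 1.13 (past the end) in each of its alternatives, and was 1.02 without the 10 members of largest gain, an alternative chosen after the data were seen that keeps the largest losses and so can only lower the ratio. No paired analysis was possible because each group compared has 1 library, and RNA-seq, whose samples share replicate numbers, was not analysed here. With 1 library per condition and folds near 1 for NUP210 and NPC, differences within the intervals were not detectable at this depth.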
